A study of Saccharomyces cerevisiae with 2 samples.

Results

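The genes described are 40 genes of the actin cytoskeleton and of cell polarity in the budding yeast Saccharomyces cerevisiae, chosen by name from a fixed list and found among 6207 open reading frames on the arrays. The arrays compared an msn2/4 mutant culture, named for the genes of the stress transcription factors Msn2 and Msn4, after 3 hours with the cell wall-digesting enzyme preparation zymolyase at 5 units per ml, with the untreated part of that culture, both grown in rich medium (YEPD) at 24 °C. Both RNA samples carry the mutation, and no other strain is compared here. Array 1 had zymolyase RNA in Cy3 and untreated RNA in Cy5, and array 2 had zymolyase RNA in Cy5 and untreated RNA in Cy3. The series' design text gives 1 culture, so both arrays measure 1 pair of RNA samples (the text attached to each array speaks of more cultures) and were treated as a single replicate. The design thus allowed no test of zymolyase against untreated cells, and each SD below is over the 2 hybridisations only. MSN2 and MSN4 had no ratio on either array, and a ratio between samples of 1 mutant could not have shown the genotype.

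Budding yeast builds its actin into patches and cables. Patches are branched networks made by the Arp2/3 complex at sites of endocytosis, and cables are bundles made by formins along which myosin V carries secretory vesicles to the bud. The small GTPase Cdc42 and its partners mark the site where both are concentrated, and damage to the cell wall is known to change this polarised arrangement for a time. In bulk RNA, a ratio cannot tell a change of transcript per cell from a change in the mix of cells, such as the share that carry a bud.

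All ratios are on the log2 scale. The deposited table does not say which sample is the numerator. The sign of array 2 was turned so that both arrays run the same way, and positive ratios are then likely zymolyase over untreated. That reading rests on 3 cell wall genes among others: the MAP kinase gene SLT2 had 4.08 on array 1 and 2.00 on array 2 after the turn, the pseudokinase gene KDX1 3.96 and 3.48, and the wall protein gene PIR3 3.73 and 2.70. Both the direction and the turn are assumptions; with the opposite numerator every sign below changes. Across all genes with a ratio on both arrays, the median of the mean ratios was -0.37, so a gene at 0 stood above the middle of the array.

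A ratio on both arrays was given for 25 of the 40 genes (62.5%), against 2254 of all 6207 genes (36.3%). Another 2 genes had a ratio on array 1 alone, 2 on array 2 alone and 11 on neither. Coverage differed by role. Of the Arp2/3 genes 6 of 7 were covered on both arrays, of the patch filament genes 7 of 9 and of the Cdc42 genes 3 of 3, together with ACT1 and PFY1. Of the genes for coat and nucleation factors 4 of 10 were covered, and of the cable, formin and polarisome genes 3 of 9. The 11 genes without any ratio were AIP1, LAS17, VRP1, MYO3, MYO5, SLA1, MYO2, BNI1, BUD6, SPA2 and PEA2. They include the myosin V that carries vesicles (MYO2), the formin of the bud tip (BNI1), both type I myosins (MYO3 and MYO5) and the yeast relative of WASP (LAS17), so nothing can be said of these. What filter left genes empty is not stated. Uncovered genes were longer: the 15 without both ratios had a median annotated length of 2907 bases and the 25 with both 1155 bases, and 10 of 12 genes up to 1000 bases were covered, against 2 of 9 genes over 3000 bases. Over all genes the same shares were 36.1% and 30.4%. The part of length in the missing values was not tested.

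**Figure D1:**
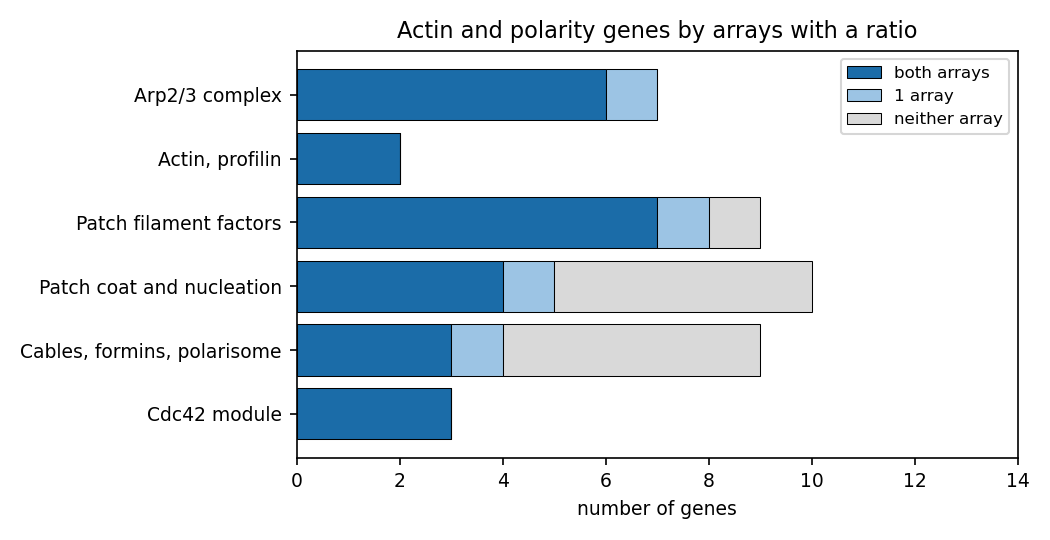
Number of actin and polarity genes (x axis) in each role (y axis) with a ratio on both arrays, on 1 array or on neither. All 3 Cdc42 genes and 6 of 7 Arp2/3 genes were covered on both arrays, while only 3 of 9 cable, formin and polarisome genes were.

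The covered actin and polarity genes lay close to 0. Of the 25 genes, none was at least 2-fold positive and 1, the formin gene BNR1, was at least 2-fold negative, where a call needs a mean ratio of 2-fold or more (1 on the log2 scale) and the same sign on both arrays. Over all genes, 16.5% passed in either direction, 2.88% as positive and 13.6% as negative. The other 24 genes had means between -0.70 and 0.45, which is at most 1.62-fold in either direction. The mean was within 0.5 of 0 for 22 of the 25 genes (88%), against 50.3% of all genes. After centring each array on its median, 17 genes (68%) were within 0.5, against 58.8% of all genes, and none was called in either direction, against 5.41% of all genes as positive and 7.14% as negative (12.6% together). The median over the 25 genes was 0.0040, with 20 of them above the all-gene median of -0.37. These small means came from arrays of opposite sign, and the single arrays were not near 0: 15 of 27 genes valued on array 1 were at least 2-fold, against 47.6% of all genes there, and 6 of 27 on array 2, against 35.2%.

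**Figure D2:**
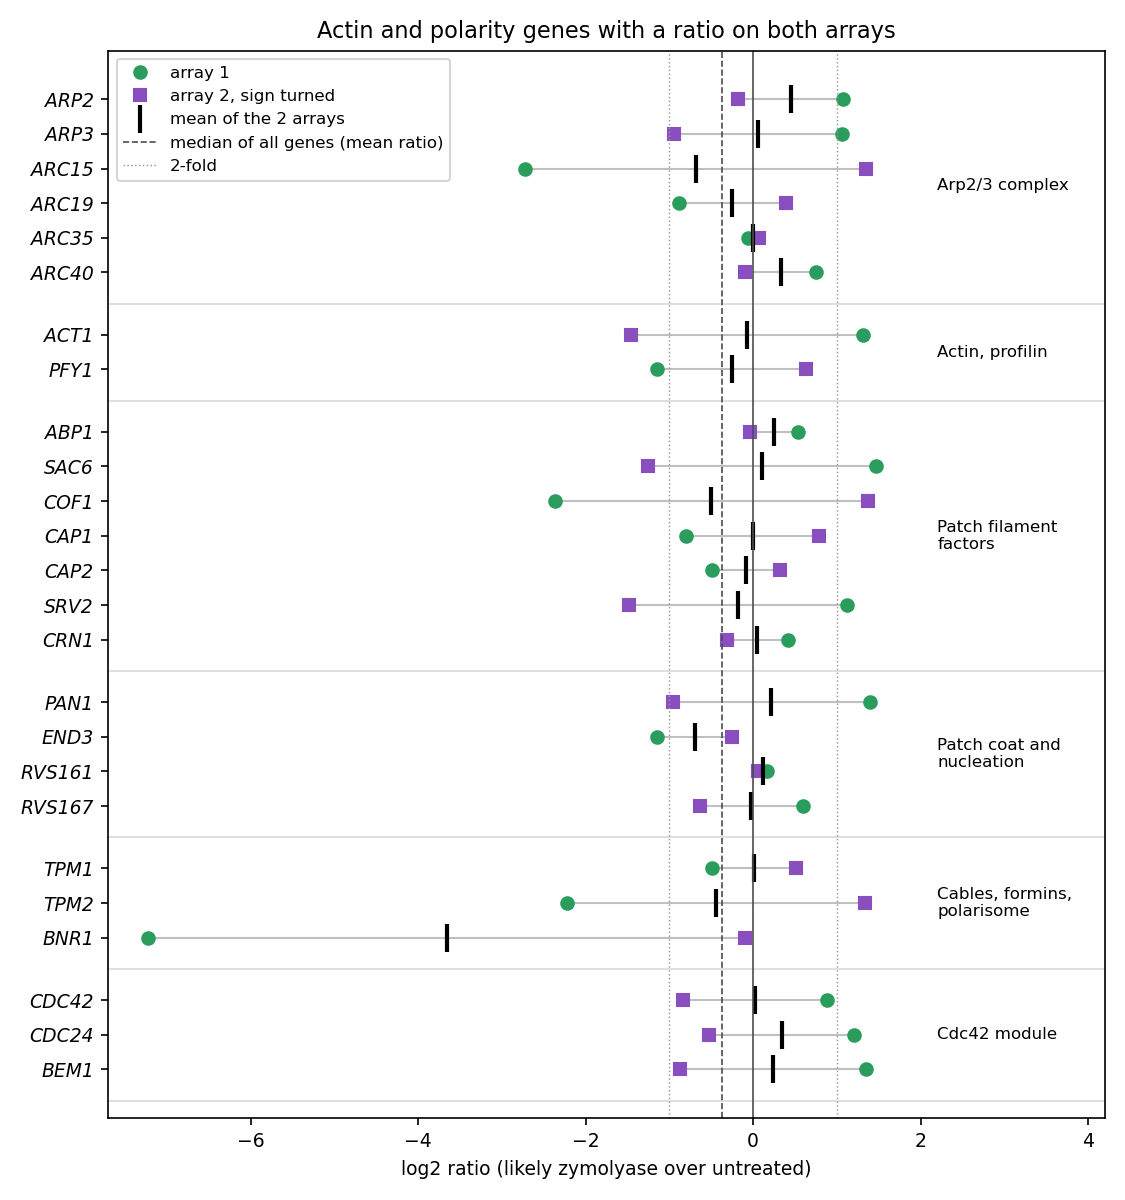
Log2 ratios of the 25 actin and polarity genes (y axis, grouped by role) on array 1 (circles) and on array 2 with its sign turned (squares), with the mean as a vertical bar, the median of all genes as a dashed line and 2-fold as dotted lines. For 22 of the 25 genes the arrays lie on opposite sides of 0, and BNR1 stands alone at -7.22 on array 1.

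The Arp2/3 complex nucleates the branched filaments of the patch and consists of the actin-related proteins Arp2 and Arp3 and 5 further subunits. None of its 6 covered genes passed 2-fold, against 16.5% of all genes, a share that 6 genes are too few to resolve. The median of their means was 0.03. ARP2 had 1.08 on array 1 and -0.18 on array 2, a mean of 0.45 ± 0.89, the highest mean of the 25 genes. ARP3 had 1.06 and -0.95, a mean of 0.06 ± 1.42. Both genes for the actin-related subunits were thus positive on array 1 and negative on array 2. ARC40, the gene for the beta-propeller subunit, behaved likewise, with 0.76 and -0.09 (mean 0.33 ± 0.60). ARC35 was near 0 on both arrays, at -0.06 and 0.07 (mean 0.0040 ± 0.09). The genes for the smallest subunits went the other way on each array: ARC15 had -2.72 on array 1 and 1.35 on array 2, with a mean of -0.68 ± 2.88. ARC19 had -0.89 and 0.39, with a mean of -0.25 ± 0.91. ARC18 had a ratio on array 2 alone, 0.54. Although the 7 proteins form 1 complex, on array 1 their genes spanned values from -2.72 to 1.08, and no covered gene of the complex had the same sign on both arrays.

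Actin and profilin serve both patches and cables. ACT1, the single actin gene of this yeast, had 1.31 on array 1 and -1.46 on array 2, with a mean of -0.08 ± 1.96. Each array alone would put it past 2-fold, in opposite directions. PFY1, the gene for the actin monomer-binding protein profilin, had -1.15 and 0.64, with a mean of -0.26 ± 1.26, again with opposite signs. ACT1 is often used as a reference gene in yeast, and its mean ratio lay above 70.6% of all genes.

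Among 7 covered genes for proteins that bind, cap or turn over patch filaments, none passed 2-fold, against 16.5% of all genes. So few genes say little beside that share. Their means ran from -0.50 to 0.25. SAC6, encoding the bundling protein fimbrin, had 1.47 and -1.26 (mean 0.11 ± 1.93), and SRV2, encoding the cyclase-associated protein that recycles actin monomers, had 1.12 and -1.48 (mean -0.18 ± 1.84). COF1, encoding the filament-severing protein cofilin, had the opposite pattern at -2.37 and 1.37 (mean -0.50 ± 2.64). These 3 were the members of this role whose arrays were both past 2-fold, each with signs that cancelled. The genes for the capping protein subunits had the same signs, CAP1 with -0.80 and 0.79 (mean -0.01 ± 1.13) and CAP2 with -0.49 and 0.33 (mean -0.08 ± 0.58). ABP1, encoding an Arp2/3 activator of the patch, had 0.54 and -0.03 (mean 0.25 ± 0.41), and CRN1, encoding coronin, had 0.41 and -0.31 (mean 0.05 ± 0.51). TWF1, encoding the monomer-binding protein twinfilin, was valued on array 2 alone, at 0.29.

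The endocytic coat and the nucleation factors assemble the patch and start its actin. PAN1, the gene for a coat scaffold that activates Arp2/3, had 1.39 on array 1 and -0.95 on array 2 (mean 0.22 ± 1.66). END3 encodes the partner of Pan1 in the coat. It had -1.15 and -0.25, the same sign on both arrays, with a mean of -0.70 ± 0.63, the second lowest of the 25 and short of 2-fold. Its array 2 value lay above that array's all-gene median of -0.40. After centring, its signs on the arrays therefore opposed each other, with a mean of -0.31. Apart from BNR1, only END3 and 1 other covered gene kept 1 sign across the arrays. The other was RVS161, for 1 subunit of the amphiphysin pair that helps vesicles to pinch off, at 0.17 and 0.06 (mean 0.12 ± 0.08). RVS167, for the other subunit, had 0.60 and -0.64 (mean -0.02 ± 0.87). SLA2, encoding a protein that links the coat to actin, had a ratio on array 1 alone, -0.65.

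The cable, formin and polarisome genes were covered least, and they hold the 1 gene past 2-fold. BNR1, encoding the formin of the bud neck, had -7.22 on array 1 and -0.09 on array 2, a mean of -3.66 ± 5.04 (12.6-fold lower). The mean rests on array 1, where the ratio before the log was 0.0067, small beside 1 and held in steps of 0.0001. On array 2 there was almost no difference, so the fold of the mean is not a size that both arrays show. Only 0.49% of all genes had a lower mean, and 10 genes of all those valued had a ratio below -7 on array 1. After centring, the sign of BNR1 on array 2 opposed that on array 1, and it was no longer called. MYO4, for the myosin V that carries mRNA to the bud, also had a strongly negative ratio on array 1, -4.51, with no ratio on array 2 to set beside it. TPM1, for the main tropomyosin of the cables, had -0.49 and 0.51 (mean 0.01 ± 0.71). TPM2, for the minor tropomyosin, had -2.22 and 1.33 (mean -0.45 ± 2.51). The difference of TPM2 minus TPM1 was -1.73 on array 1 and 0.82 on array 2, so the arrays disagree on which of the paralogs was lower, and how far probes for such paralogs cross-hybridise was not tested.

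The Cdc42 module sets the site of polarity. CDC42 had 0.88 on array 1 and -0.84 on array 2 (mean 0.02 ± 1.21). CDC24, for its exchange factor, had 1.21 and -0.52 (mean 0.34 ± 1.23). BEM1, for the scaffold that joins the exchange factor to Cdc42 effectors, had 1.35 and -0.87 (mean 0.24 ± 1.57). All 3 were positive on array 1 and negative on array 2, with a median mean ratio of 0.24. None passed 2-fold, against 16.5% of all genes, and 3 genes say little beside that share.

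Patch and Arp2/3 genes were set against cable, formin and polarity genes, leaving out ACT1 and PFY1. The median mean ratio was 0.0040 over 17 patch and Arp2/3 genes (quartiles -0.18 and 0.12) and 0.01 over 6 cable, formin and polarity genes (quartiles -0.33 and 0.18). The difference of the medians was -0.01. The cable side pooled unlike parts, with a median of -0.45 over 3 cable, formin and polarisome genes and 0.24 over 3 Cdc42 genes. The patch and Arp2/3 median was 0.41 on array 1 and -0.09 on array 2, and the cable, formin and polarity median 0.19 and -0.31. Each array thus gave a larger distance between the groups than the mean did. On both arrays the patch and Arp2/3 median was the higher, the opposite direction to the difference of -0.01. With 1 culture and 6 genes on the cable side this is a description, and it does not show that the groups are alike. Across genes, the SD of the mean ratios was 0.33 for patch and Arp2/3 genes and 1.53 for cable, formin and polarity genes, and the second value was 0.30 without BNR1.

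**Figure D3:**
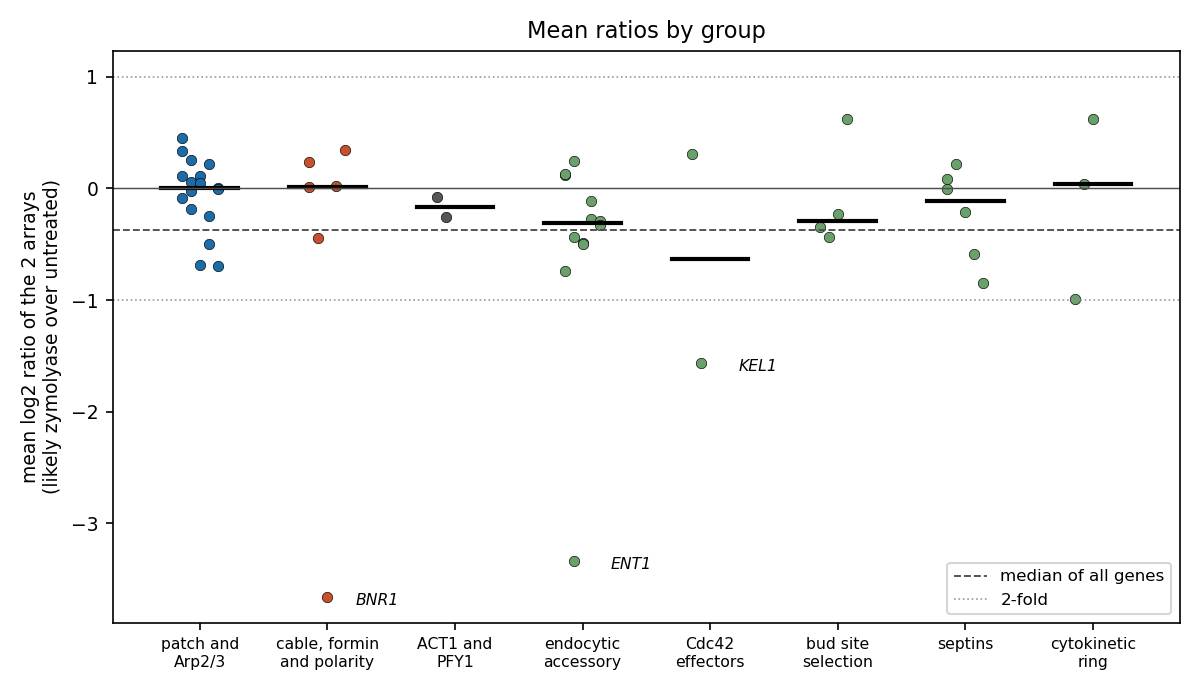
Mean log2 ratio of the 2 arrays (y axis) for each gene with both ratios, by group (x axis), with horizontal bars at the group medians, the all-gene median as a dashed line and 2-fold as dotted lines. Patch and Arp2/3 genes and cable, formin and polarity genes share a median near 0, and the named genes are those past 2-fold with the same sign on both arrays.

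In the table as deposited, before any turn, the actin and polarity genes had values of like sign and order on both arrays. The deposited signs were equal for 22 of the 25 genes (88%), against 60.2% of all genes. Pearson's r between the deposited columns was 0.60 across the 25 genes and 0.91 across the 24 without BNR1, against 0.19 across all 2254 genes. No outlier was left out of the value for all genes. By ranks, with BNR1 kept, Spearman's correlation was 0.84 across the 25 genes and 0.31 across all genes. These are correlations across genes that share both arrays and their dyes, not across samples. A gene that differs between zymolyase and untreated cells would, under the dyes of the labels, have opposite deposited signs if the columns hold 1 dye over the other, as SLT2, PIR3 and KDX1 did. If array 2 was already turned before deposit, the deposited signs are the right ones. The file shows an inversion of that column at some step: all 239 of its values below -2 after a change of sign are whole multiples of 0.0001 as ratios, against 3 of 40 below -2 as deposited. Whether that inversion aligned the arrays is not stated, and which reading holds was not tested. With the deposited signs taken as right, SLT2, PIR3 and KDX1 would each be past 2-fold on both arrays, in opposite directions. ARP3, ACT1, SAC6, SRV2, PAN1 and BEM1 would then be 2-fold positive and ARC15, COF1 and TPM2 2-fold negative, 6 and 3 of 25 genes, against 12.3% and 13.7% of all genes (26% together) under that reading. ACT1 would have a mean of 1.39 and ARC15 one of -2.04.

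**Figure D4:**
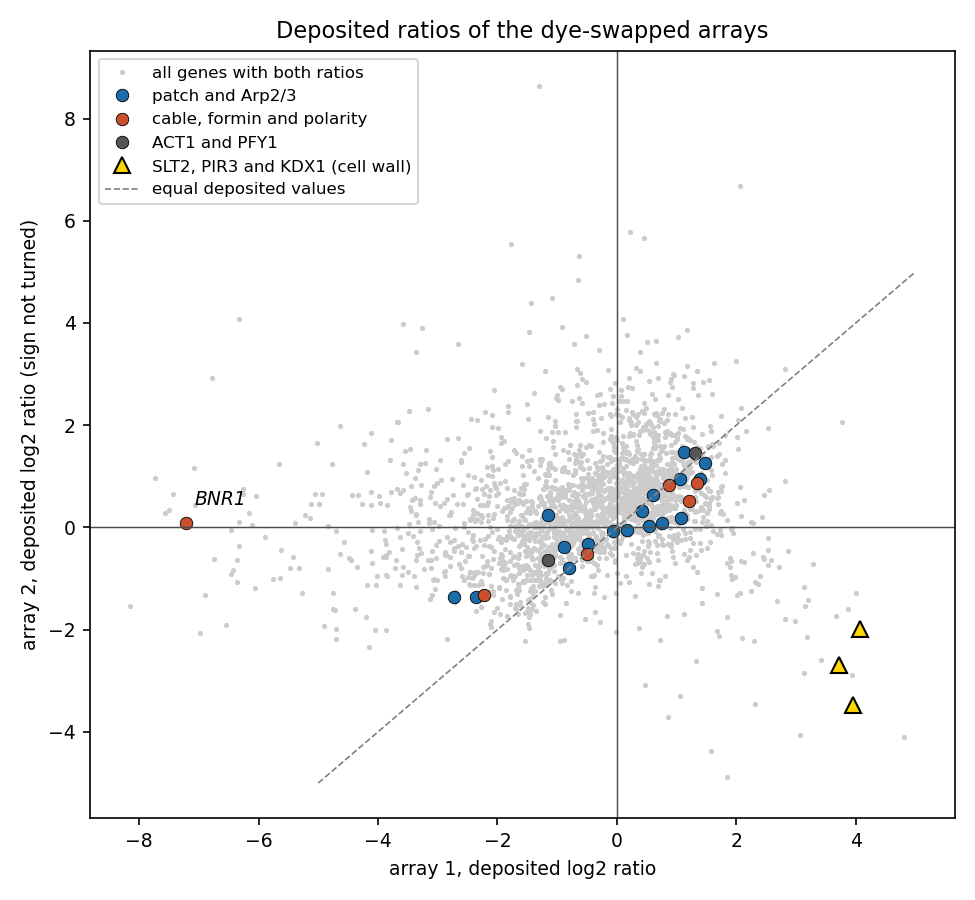
Deposited log2 ratios of array 1 (x axis) and array 2 without the turn (y axis) for all genes with both ratios (grey) and for the actin and polarity genes by group, with the cell wall genes SLT2, PIR3 and KDX1 as triangles and equal values as a dashed line. Apart from BNR1 at -7.22, most actin and polarity genes rise together on both axes, with array 1 the wider in range, and the cell wall genes lie where the deposited signs oppose each other.

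The deposited values of these genes moved with gene length. Of 10 covered genes up to 1000 bases long, 8 were negative in both deposited columns, and of 15 longer genes 12 were positive in both. Over all genes, 421 of 774 up to 1000 bases were negative in both columns and 646 of 1408 longer ones positive in both. ARC15, TPM2 and COF1, the lowest in both columns among genes with both ratios, apart from BNR1 on array 1, are 465, 486 and 611 bases long, whereas ACT1, SRV2 and SAC6, the highest on array 2, are 1437, 1581 and 2040 bases long. The other 2 short genes were CDC42, with 576 bases and 0.88 and 0.84 in the deposited columns, and RVS161, with 798 bases and 0.17 and -0.06. Spearman's rank correlation with length was 0.77 for the part that the deposited columns share (their average) across the 24 genes without BNR1, 0.59 with BNR1, and 0.46 across 2182 genes with a length. For the mean ratio after the turn, it was 0.61 across the same 24 genes, 0.44 with BNR1 and 0.02 across all genes. Of the 10 short genes, ARC15, COF1, TPM2, PFY1 and ARC19 had means from -0.68 to -0.25, and CDC42, TPM1, RVS161, CAP1 and CAP2 had means from -0.08 to 0.12. END3, with the lowest mean of the 24, is 1050 bases long. After a linear fit on log2 length was taken from each array, the median of the 25 genes was -0.04 and no gene was called. ARC15 had a mean of -0.76 there, COF1 -0.56, TPM2 -0.52, PFY1 -0.32 and ARC19 -0.32, each further from 0 than before the adjustment. The other short genes were lowered too, CDC42 to -0.04, TPM1 to -0.05, RVS161 to 0.08, CAP1 to -0.05 and CAP2 to -0.12. The fit was made on each array over all genes. Their Spearman correlation with length was 0.34 on array 1 and 0.46 on array 2 as deposited. The turn sets these against each other, and the mean ratio hardly followed length (0.02). The fit lowered the means of the short genes and raised those of long genes such as SAC6 (0.11 to 0.14) and PAN1 (0.22 to 0.31). It therefore did not take out the trend within these genes. BNR1 had a mean of -3.57 there but opposite signs on the arrays. The part of the dyes in these means was not tested.

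**Figure D5:**
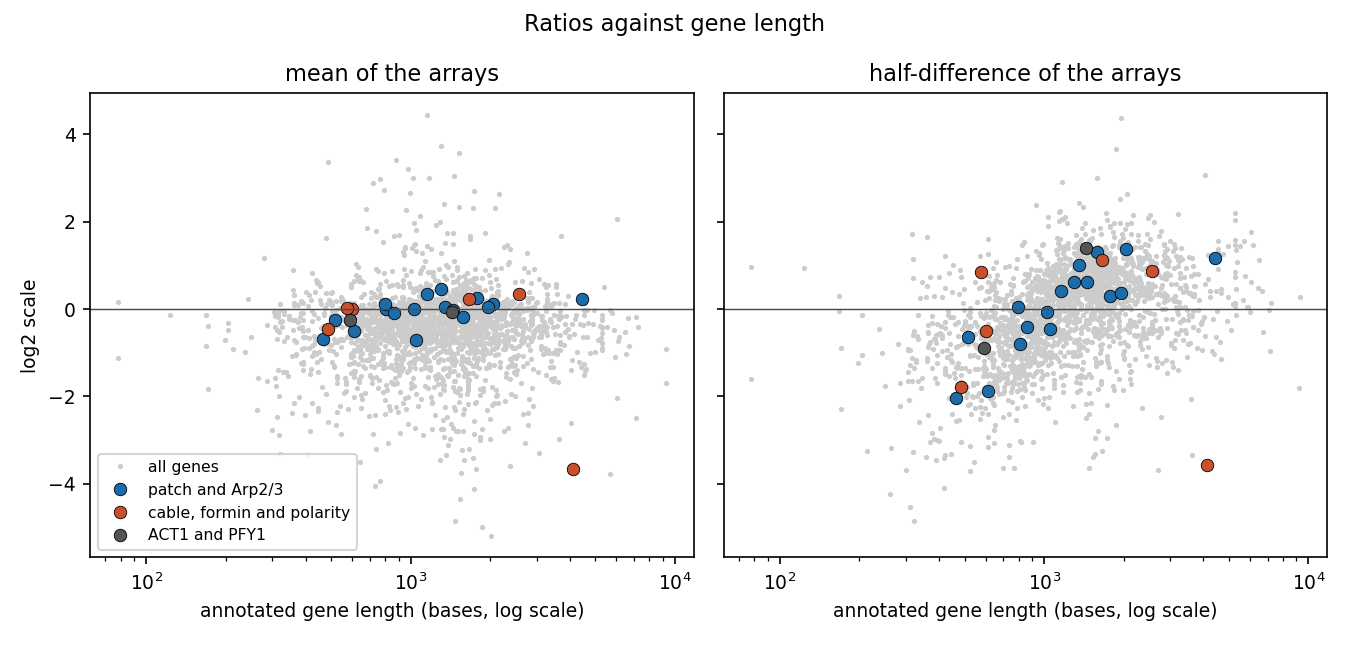
Mean of the 2 arrays after the turn (left) and the half-difference of array 1 minus array 2 after the turn (right), which equals the average of the deposited columns, both on the log2 scale, against annotated gene length in bases on a log axis, for all genes (grey) and the actin and polarity genes by group. In the right panel short genes such as ARC15 lie near -2.04 and longer ones such as ACT1 near 1.39, while in the left panel all but BNR1 lie between -0.70 and 0.45.

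Of 72 further genes of actin patches, polarity and cytokinesis, placed in 5 lists, 27 had both ratios. None of the 27 was at least 2-fold positive, against 2.88% of all genes. At least 2-fold negative were 2 (7.41%, against 13.6% of all genes), and the median of the 27 was -0.27. With array 2 as deposited both of these calls end, since the deposited signs of ENT1 and KEL1 oppose each other. Among 12 covered endocytic coat and accessory genes, ENT1, encoding an epsin adaptor, had -5.02 and -1.65, a mean of -3.34 ± 2.38, past 2-fold on each array. Its paralog ENT2, chosen after its values were seen, had -0.57 and -0.40, a mean of -0.48 ± 0.12. Both epsin genes were negative on both arrays, but ENT2 lay near the middle of all genes, 43.0% of which had a lower mean. After centring, the mean was -0.09 for ENT2 and -2.95 for ENT1. Among 2 covered Cdc42 effectors and scaffolds, KEL1, for a kelch-repeat protein of polarised growth, had -2.36 and -0.78, a mean of -1.57 ± 1.12. No gene of the other 3 lists passed, against 16.5% of all genes, and with 4, 6 and 3 covered genes this says little beside that share. Among 4 covered bud site genes the largest means were 0.62 ± 0.73 for AXL2, encoding a bud site membrane protein, and -0.43 ± 1.10 for BUD5, encoding an exchange factor. Among 6 septin and septin regulator genes they were -0.84 ± 0.99 for the kinase gene KCC4 and -0.59 ± 0.84 for the septin gene SHS1. Among 3 cytokinetic ring genes they were -0.99 ± 1.72 for the myosin light chain gene MLC1 and 0.63 ± 1.64 for the calmodulin gene CMD1. Of these genes, BUD5, SHS1, MLC1 and CMD1 had opposite signs on the arrays, so their means give no direction that both arrays share. AXL2 and KCC4 had the same sign on both. After the turn, 12 of the 27 further genes had equal signs on the arrays (44.4%), against 3 of the 25 genes described above (12%) and 39.8% of all genes.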

How the data were processed

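The authors deposited 1 log2 ratio per open reading frame and array; base 2 follows from the values, since all 387 below -2 on array 1 give whole multiples of 0.0001 within the rounding of the deposited value, against 5 in base 10. Scanner, background correction, normalization and the filter behind empty rows are not given in the sources used here, and no spot intensities were used, so spot brightness is unknown. Each SD stated comes from 2 arrays with swapped dyes. It also holds any effect of the dyes on a gene, which was not tested, and no spread between cultures. Per the labels' protocols, the dyes Cy5 and Cy3 entered the cDNA during reverse transcription. Names came from a RefSeq table of assembly R64 (5654 by locus tag, 21 by an older name, 532 unmatched, 2 control rows left out); its gene lengths include introns. The array 2 sign was turned and the arrays averaged per gene (Python 3.11.15, pandas 2.3.3, scipy 1.17.1). The averaging was checked on simulated data. Those data were built with opposite signs on the 2 arrays, so the check cannot show whether array 2 should be turned. The design text was followed in counting the arrays as a technical dye swap, so 1 replicate, although the text attached to each array speaks of more cultures. Alternatives were centring, scaling, no turn, length adjustment, agreeing arrays, single arrays, other call rules and other group membership. Genes, lists and settings were chosen with earlier results of these data known. All 40 genes are named; of each further list, up to 4 passing genes or the 2 with the largest means are named. 1 further gene list is not reported here.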

Additional observations from a re-analysis of the deposited data

How the results depend on the processing

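No paired analysis was made because both arrays were taken, after the series' design text, to measure 1 pair of RNA samples. The turn of array 2 is an assumption, no spot signal is known and BNR1 rests on 1 array. The count of 0 positive genes stayed at 0 with centring, scaling, length adjustment, agreeing arrays, 1.5-fold and 2-fold on each array, and became 6 with array 2 as deposited. The count of 1 negative gene became 0 with centring, scaling, length adjustment, agreeing arrays (7 genes left), 2-fold on each array and without BNR1 (added after seeing the data), 2 at 1.5-fold and 3 with array 2 as deposited. Values from 1 array alone are over every gene valued on it (27 on each array; SLA2 and MYO4 are added on array 1, ARC18 and TWF1 on array 2), so they differ from the single-array medians of the 25 genes. There, positive counts were 3 to 8 and negative counts 3 to 7. The median of all 25 genes (0.0040) was 0.39 after centring and -0.09 to 0.17 from 1 array (27 genes each). The patch and Arp2/3 median (0.0040) was 0.39 after centring and 0.39 after scaling, and -0.03 to 0.29 from 1 array (19 genes on array 2, 18 on array 1). The cable, formin and polarity median (0.01) was 0.40 after centring and -0.49 to -0.31 from 1 array (-0.49 over 7 genes with MYO4 on array 1, against 0.19 over the 6 genes with both ratios there). The difference of the medians (-0.01) was 0.023 after scaling, 0.11 with array 2 as deposited, 0.033 after length adjustment, 0.036 without COF1, SRV2 and AIP1, -0.017 without BNR1 and 0.27 to 0.79 from 1 array, over those larger sets. No cable, formin or polarity gene had arrays within 1 of each other, so that setting gave no value for that group. The causes were not tested.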
